A study of Mus musculus with 4 samples.

Results

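Pyy, Nppb, Fabp7 and Atp6v1g3 are 4 of the 32285 genes listed in each of 4 single-cell RNA libraries from mouse epidermis, and they were chosen because their levels had been seen to be higher, together with Krt8, after loss of ΔNp63. Levels, shares of positive cells and co-expression with Krt8 are therefore given as descriptions, and no test is attached to them. The name under which the genes were grouped calls them peptide genes, but Pyy and Nppb alone encode secreted peptides. Fabp7 encodes a fatty acid-binding protein of the cytoplasm, and Atp6v1g3 a subunit of a proton pump.

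Dorsal epidermis was taken from DNp63fl/fl mice (control) and DNp63fl/fl;K14-CreT2 mice (labelled experimental, called ablated here), aged 2 to 17 months with equal numbers of both sexes. Both genotypes received tamoxifen by oral gavage at 200 mg/kg on 5 daily occasions, so the controls carry the floxed allele and the drug without the recombinase. The keratin 14 promoter drives the tamoxifen-inducible recombinase in basal keratinocytes. Cells were collected 1 day or 1 week after ablation, with a 3′ kit at 1 day and a 5′ kit at 1 week, so the time points were never pooled. There was 1 library for each genotype at each time, and the labels do not say how many mice entered a library, which ages or sexes were in it, or whether its cells came from trypsin (0.25%) overnight at 4 °C or for 2 hours at 37 °C.

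The filters left 22298 control cells against 23651 ablated ones in the 1-day pair, and 19879 against 15626 in the 1-week pair. Median depth before filtering lay between 1298 and 4210 UMIs (unique molecular identifiers, each a counted RNA molecule) per cell barcode. The lowest UMI count of a deposited barcode was 500 in both control libraries but 1368 and 1059 in the ablated ones, so the depth of the shallowest cells differed between genotypes. The control and ablated libraries shared 299 barcodes at 1 day and 661 at 1 week. Trp63, the gene that encodes all p63 forms, stood at 396 CPM (UMIs of the gene per 1000000 UMIs of all genes) in the control of the 1-day pair against 114 after ablation, and at 428 against 141 in the 1-week pair. The labels do not name the deleted exon, so the counted reads may lie outside it, and the counts do not separate the ΔNp63 form from others. The labelled tissue is epidermis, with cells called keratinocytes and other, and the marker lists found both.

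ΔNp63 is the transcription factor that maintains stratified epithelia such as the epidermis. Krt8 and its partner Krt18 are keratins of simple epithelia, and in healthy skin they mark Merkel cells, the touch-sensing cells of the epidermis. Peptide YY, the product of Pyy, is a gut hormone related to neuropeptide Y and pancreatic polypeptide. B-type natriuretic peptide, the product of Nppb, is best known as a heart hormone that acts through cyclic GMP. Fabp7, also called brain lipid-binding protein, marks radial glia. Atp6v1g3 encodes a G subunit of the V-ATPase, the vacuolar proton pump, and is known from the acid-secreting cells of the kidney.

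The 4 genes lie on different chromosomes, so their upstream sequences are shown to let their starts be compared. All come from RefSeq windows on GRCm38.p6 and are written 5′ to 3′ on the gene's strand; the longer ones stop before the first annotated exon. Capitals mark matches to the 6 motifs searched on both strands: TATAA (the TATA box core), GATAA (GATA factors), GGAATG (TEAD factors), TGANTCA (AP-1), TGACGTCA (the cyclic AMP response element) and the half-site of the p53 family, to which p63 belongs. Positions count back from the RefSeq start. Pyy (ENSMUSG00000017311, minus strand, gene body chr11:102106676-102107832) is shown for chr11:102107833-102108082, with a p53 family half-site at -88 and TATAA at -27 (a second RefSeq start gives the same matches at -144 and -83).
Pyy: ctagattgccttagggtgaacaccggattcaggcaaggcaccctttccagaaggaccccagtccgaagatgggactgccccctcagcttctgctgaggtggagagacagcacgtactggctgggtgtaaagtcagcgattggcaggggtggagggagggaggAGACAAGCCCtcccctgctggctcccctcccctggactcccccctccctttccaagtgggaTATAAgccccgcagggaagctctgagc
Nppb (ENSMUSG00000029019, plus strand, gene body chr4:147985788-147987205) is shown for chr4:147985650-147985787 with a half-site at -192, for chr4:147985794-147985822 with GGAATG at -105 and 2 GATAA matches, and for chr4:147985864-147985878 with TATAA at -31; the last stretches lie in the annotated gene body.
Nppb upstream: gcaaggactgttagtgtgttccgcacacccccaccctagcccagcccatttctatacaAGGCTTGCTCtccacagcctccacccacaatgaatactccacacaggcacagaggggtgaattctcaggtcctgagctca
Nppb near start: aGGAATGcagctGATAAatcagaGATAAc
Nppb TATA: cccagTATAAaaggc
Fabp7 (ENSMUSG00000019874, plus strand, gene body chr10:57784881-57788450) is shown for chr10:57784673-57784880 and held none of the 6 motifs.
Fabp7: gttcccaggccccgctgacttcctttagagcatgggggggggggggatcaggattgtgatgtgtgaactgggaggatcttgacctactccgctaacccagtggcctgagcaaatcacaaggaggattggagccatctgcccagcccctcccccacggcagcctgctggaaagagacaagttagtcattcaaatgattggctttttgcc
Atp6v1g3 (ENSMUSG00000026394, plus strand, gene body chr1:138273738-138289462) is shown for chr1:138273488-138273737, with a half-site at -80.
Atp6v1g3: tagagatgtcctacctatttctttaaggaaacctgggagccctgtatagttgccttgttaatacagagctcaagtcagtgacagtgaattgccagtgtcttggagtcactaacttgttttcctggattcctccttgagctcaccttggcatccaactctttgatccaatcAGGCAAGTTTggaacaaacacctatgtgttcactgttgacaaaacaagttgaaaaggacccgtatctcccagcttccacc
A p53 family half-site was thus present upstream of 3 of the 4 genes, and in 8.36% of 32851 RefSeq windows of 300 bases. TATAA stood in 24.9% of those windows, GATAA in 25.4%, GGAATG in 14.7%, TGANTCA in 7.81% and TGACGTCA in 1.79%. The Krt8 window held no half-site. These are matches of letters, not measured binding sites, and the lack of a match says only that the letters are not in the window.

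All 4 genes were higher in the ablated library than in the control library at both times, as was Krt8. Values below are CPM over all cells passing the filters, with exact 95% Poisson intervals that cover counting error only. The intervals take each UMI as independent, so they also leave out the spread between cells. With 1 library per group, the spread between mice is unknown.

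Among the secreted peptides, Pyy stood at 24.9 CPM (24.0 to 25.9) in the control and 169 (167 to 172) in the ablated library at 1 day, and at 40.8 (39.3 to 42.3) and 109 (107 to 112) at 1 week. Pyy was thus well above the floor of detection in both controls, and its difference was the smallest of the 4 at both times, with log2 ratios of 2.76 (2.70 to 2.82) and 1.42 (1.36 to 1.49). Nppb stood at 3.23 CPM (2.91 to 3.58) and 90.8 (88.9 to 92.7) at 1 day, and at 2.34 (2.00 to 2.73) and 187 (183 to 190) at 1 week. Its log2 ratios were 4.81 (4.66 to 4.97) and 6.32 (6.10 to 6.55), a 28.1-fold and a 79.8-fold difference.

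Of the intracellular proteins, Fabp7 was close to absent in the controls, with 22 UMIs in 22298 cells at 1 day and 13 UMIs in 19879 cells at 1 week. The ablated libraries held 1207 and 1392 UMIs, which gave 12.3 CPM (11.6 to 13.0) and 23.9 CPM (22.7 to 25.2). The log2 ratios of Fabp7 were 5.96 (5.36 to 6.64) at 1 day and 7.04 (6.26 to 7.95) at 1 week. Atp6v1g3 stood at 0.314 CPM (0.219 to 0.437) and 14.8 (14.04 to 15.6) at 1 day, and at 1.38 (1.12 to 1.68) and 9.07 (8.31 to 9.87) at 1 week. Its log2 ratio was 5.56 (5.07 to 6.08) at 1 day and 2.72 (2.41 to 3.05) at 1 week. The kits differ between the times, so the pairs stand side by side without a comparison. Krt8 itself stood at 0.852 and 547 CPM in the 1-day pair, and at 1.04 and 320 CPM in the 1-week pair.

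These ratios, and the order of the 4 genes by them, depend on which cells are counted and how they are weighted. In the cells under 2000 UMIs the log2 ratio of Fabp7 was 2.04 (1.06 to 3.17) at 1 day and 5.06 (4.00 to 6.38) at 1 week, against 6.81 and 7.96 in deeper cells. At 1 day 10 of the 22 control UMIs of Fabp7 lay in such shallow cells, at 2.02 CPM against 0.113 in the deeper ones. Those 10 UMIs were in 5 cells, with 6 in 1 cell, and without that cell the control level was 0.807 CPM and the log2 ratio 3.36 (1.93 to 5.29). As the mean of CPM per cell, the ratio of Fabp7 was 4.27 at 1 day, below Nppb at 4.83 and Atp6v1g3 at 5.67, and 5.55 at 1 week, below Nppb at 6.40. Without the cells holding 10 or more UMIs of the gene, the log2 ratio of Fabp7 was 4.93 at 1 day and 5.76 at 1 week, that of Nppb 4.07 and 5.83, and that of Pyy 2.27 and 1.28. In the keratinocyte classes described below, without the Krt8-led cells, the 1-day log2 ratio was 2.25 for Pyy, 3.87 for Nppb, 6.62 for Fabp7 and 4.37 for Atp6v1g3. The 1-week ratio was 0.83 for Pyy, 5.91 for Nppb, 8.79 for Fabp7 and 1.14 for Atp6v1g3. Those classes were not free of Krt8, which stood there at 303 CPM at 1 day and 201 at 1 week in the ablated libraries. Within the 1-day ablated library Fabp7 also differed between cells of different antibody tags, at 25.1 and 1.26 CPM, and the labels do not say what the tags mark.

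**Figure D1:**
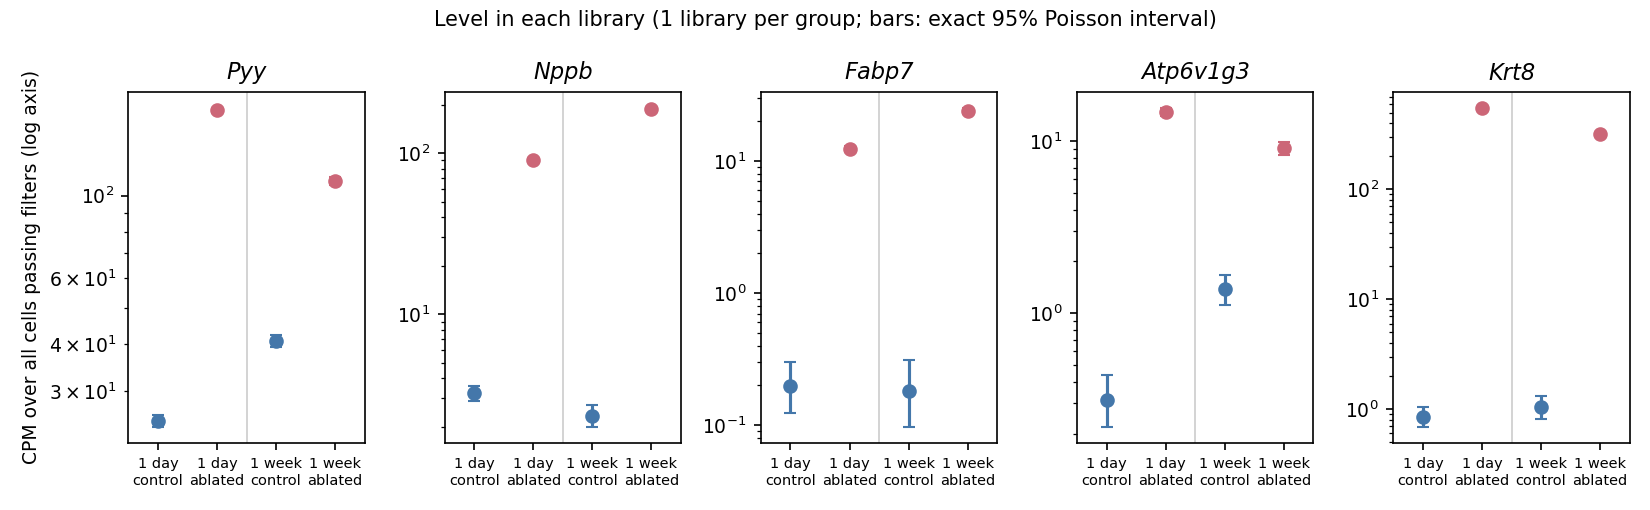
Level of each gene in CPM (log axes, a different range in each panel) in the 4 libraries, 1 point per library, with exact 95% Poisson intervals. The ablated point lies above the control point for every gene at both times, and the gap is narrowest for Pyy, at 40.8 against 109 CPM at 1 week.

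At 1 day, 4 of the 4 genes were at least 2-fold higher in the ablated library, where 5.38% of the 15478 genes with at least 20 UMIs were. At least 16-fold higher were Nppb, Fabp7 and Atp6v1g3, against 0.317% of all genes. At 1 week, 4 of 4 were at least 2-fold higher against 10.1% of 16124 genes, and Nppb and Fabp7 were at least 16-fold higher against 0.819%. The genes were chosen on these same contrasts, so the counts support nothing further. The median log2 ratio over all genes was -0.05 at 1 day and 0.09 at 1 week.

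Positive cells, those with at least 1 UMI, were few for each gene. To remove differences in depth, cells with at least 2000 UMIs were thinned to exactly 2000, which left 18577 control and 19346 ablated cells of the 1-day pair, and 8446 and 5179 of the 1-week pair. Pyy was then found in 2.04% of control and 8.11% of ablated cells at 1 day, and in 3.01% and 5.97% at 1 week. Nppb was found in 0.404% and 6.63%, then 0.201% and 11.01%. Fabp7 was found in 0.0215% and 0.941%, then 0.0237% and 1.76%. Atp6v1g3 was found in 0.0700% and 2.81%, then 0.260% and 1.35%. Each ablated share lay above its control share. These shares describe only the cells of at least 2000 UMIs. The 10447 ablated 1-week cells under 2000 UMIs, left unthinned, held Pyy in 11.2%, Nppb in 19.0%, Fabp7 in 2.45% and Atp6v1g3 in 1.02%. Over all cells without thinning, the ablated shares at 1 day were 11.02%, 9.15%, 1.43% and 4.16% for Pyy, Nppb, Fabp7 and Atp6v1g3. At 1 week they were 10.49%, 18.3%, 2.79% and 1.84%. The control shares were 2.91%, 0.735%, 0.0762% and 0.152%, then 4.79%, 0.267%, 0.0604% and 0.418%.

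Immune-like cells, which should lack these genes, were taken as a gauge of background RNA. They are not the only possible gauge. The fibroblast-like cells of the 1-day ablated library, described below, held more, with Fabp7 at 70.7 CPM and Krt8 at 456. In the 253 immune-like cells of the 1-day ablated library (median 2534 UMIs, against 3589 in the Krt8-led cells described below), the thinned share was 0.791% for Pyy, 1.19% for Nppb, 0.395% for Fabp7, 0.395% for Atp6v1g3 and 7.11% for Krt8. For Fabp7 the interval of that background reaches 2.18%, above its share over all cells, so the share alone does not separate Fabp7 from background in so few immune-like cells. By level, Fabp7 held 1 UMI there, which is 1.39 CPM (0.0353 to 7.77), against 12.3 CPM over all cells. Much of the overall level came from few cells. In the ablated libraries 28 cells held 51.1% of the Fabp7 UMIs at 1 day, and 28 cells held 59.2% at 1 week. In the 81 immune-like cells at 1 week (median 4537 UMIs) no gene of the 4 was found after thinning, which allows a share of up to 3.70% by the limit of 3 counts and 4.45% by the exact binomial interval, both above the 1-week shares of Fabp7 and Atp6v1g3 over all cells. Unthinned, these 81 cells held 1 UMI of Fabp7, which is 2.31 CPM (0.0584 to 12.8) against 23.9 over all cells, and none of Atp6v1g3, which allows up to 6.92 CPM by the limit of 3 counts and 8.51 by the exact Poisson interval, against 9.07 over all cells. The 312 immune-like cells of the 1-day control held Pyy in 0.321% and the others in none.

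The cells were clustered without the 4 genes, Krt8 or Krt18, and clusters were named from marker lists. A cluster is called Krt8-led where Merkel list genes (here Krt8 or Krt18) outnumber keratinocyte markers among its top 10 genes, which held for 1 cluster at 1 day and 3 at 1 week. Their Krt8 level follows from that rule. They held 3733 ablated cells and 4 control cells at 1 day, and 312 and 4 at 1 week. In the 1-day Krt8-led cells Pyy stood at 407 CPM, Nppb at 268, Fabp7 at 10.99 and Atp6v1g3 at 54.5, with Krt8 at 1877. In the 312 cells at 1 week the levels were 644, 879, 68.6 and 87.7 CPM, with Krt8 at 2302. Pyy, Nppb and Atp6v1g3 were thus above their library's overall level in these cells at both times, but Fabp7 at 1 day was not (10.99 against 12.3 CPM). The 1-week clusters differed among themselves: cluster 15 (226 cells) held Pyy at 704 CPM and Fabp7 at 75.1, and cluster 46 (64 cells) held Pyy at 45.0 and no Fabp7 UMI, with Nppb at 915 and 602. By share of UMIs, the Krt8-led cells held 36.2% of Pyy, 44.3% of Nppb, 13.4% of Fabp7 and 55.4% of Atp6v1g3 UMIs at 1 day with 15.02% of all UMIs. At 1 week they held 32.9%, 26.3%, 16.02% and 54.1% with 5.59% of all UMIs.

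Among the other keratinocyte classes, the peptides differed in where they were high. Basal-like cells, the stem and progenitor layer, had 39.2 CPM of Pyy in the control (4424 cells) and 391 in the ablated library (410 cells) at 1 day, a log2 ratio of 3.32 (3.16 to 3.48). Nppb in the same cells went from 3.87 to 39.8 CPM, Atp6v1g3 from 1.13 to 4.12, and Fabp7 had 0 and 1 UMIs. Pyy in these ablated basal-like cells was close to the 407 CPM of the Krt8-led cells, with Krt8 at 87.9 CPM. That Krt8 level was no higher than the 90.6 CPM of the immune-like cells of the same library. Trp63 stood at 594 CPM in the control and 357 in the ablated basal-like cells, against 114 over all ablated cells. At 1 week 15 basal-like cells remained in the ablated library against 1988 in the control, too few to compare.

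Cycling keratinocyte-like cells, in division, had the highest Nppb of the named keratinocyte classes in both ablated libraries: 7.68 and 181 CPM at 1 day (883 and 950 cells), and 3.62 and 383 at 1 week (260 and 314 cells). Pyy in cycling cells stood at 33.8 and 107 CPM in the 1-day pair but at 59.7 and 47.6 in the 1-week pair, a log2 ratio of -0.33 (-0.59 to -0.06). Clusters 7 and 23 made up the 1-week class in different proportions, with 120 and 140 control cells and 279 and 35 ablated cells, and 6 cells in each library held 10 or more Pyy UMIs. No other ratio of the 4 genes above the floor of 3 UMIs was below 0 in a keratinocyte class of at least 50 cells per library. Cluster 11, a cycling cluster of 532 ablated 1-day cells, held Nppb at 316 and Krt8 at 1742 CPM. In hair follicle-like cells, Pyy stood at 5.67 against 58.8 CPM at 1 day (log2 ratio 3.37, 3.06 to 3.70) and at 14.7 against 17.9 at 1 week (0.28, -0.06 to 0.63). Nppb in hair follicle-like cells went from 4.16 to 16.4 CPM and from 6.85 to 55.9. At 1 day this class includes cluster 14 (203 control and 471 ablated cells), whose leading genes hold the follicle marker Krt79 but also Rptn, Ivl, Cnfn and Casp14, which serve the cornified layer. Without cluster 14 the 1-day levels were 5.98 and 60.3 CPM for Pyy and 2.96 and 16.9 for Nppb.

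Among the classes compared, the ratio of Fabp7 was highest in suprabasal-like cells, which have left the basal layer. It stood there at 0.127 against 22.6 CPM at 1 day, and at 0 UMIs against 78.5 CPM at 1 week, at least 440-fold higher against a floor of 3 UMIs in the control class. Different clusters made up the suprabasal-like class in the 2 genotypes. At 1 day cluster 6 held 1303 of the control cells and cluster 7 held 1741 of the ablated cells. At 1 week clusters 20 and 24 held 204 and 170 of the 380 ablated cells. Fabp7 reached 135 CPM in cluster 24 (170 ablated cells led by Sprr2f, Fabp7 and Skint9; Sprr2f encodes a cornified envelope protein) and 54.0 in cluster 20. At 1 day it stood at 53.8 CPM in cluster 18, led by Cstdc5 and Krt6b, 29.7 in cluster 7 and 19.5 in cluster 3, led by Sprr2f and Slpi, all above the 10.99 of the Krt8-led cells. Cluster 2, led by Mt4 and Krt1 (302 ablated cells), held Pyy at 766 CPM with Fabp7 at 1 UMI and Krt8 at 48.3. Atp6v1g3 in the same suprabasal-like class went from 0 UMIs to 12.4 CPM at 1 day and from 0.417 to 6.26 at 1 week.

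**Figure D2:**
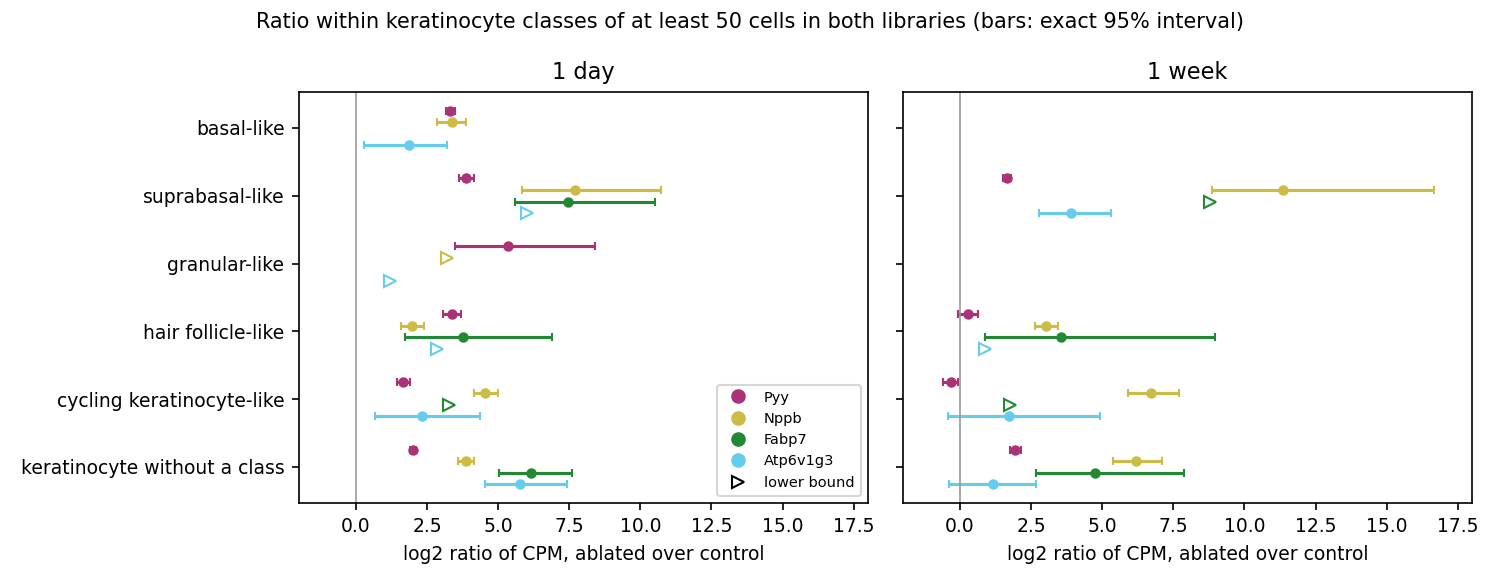
Log2 ratio of CPM, ablated over control, for each gene within keratinocyte classes of at least 50 cells in both libraries, with exact 95% intervals; open arrowheads are lower bounds where the control held 0 UMIs. Pyy in cycling cells at 1 week, at -0.33, is the 1 point left of 0.

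The fibroblast-like cluster also held the 4 genes at 1 day: its 173 ablated cells had Pyy at 88.04 CPM, Nppb at 125, Fabp7 at 70.7 and Atp6v1g3 at 23.6, along with Krt8 at 456 and Trp63 at 95.5. Of these 173 cells, 3 held 10 or more UMIs of Pyy, 2 of Nppb and 2 of Fabp7. At 1 week fibroblast-like cells (74) held 1 Krt8 UMI, and 2, 3, 0 and 1 UMIs of Pyy, Nppb, Fabp7 and Atp6v1g3. The part of mixed barcodes in the 1-day values was not tested.

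Within the ablated libraries the 4 genes followed Krt8 to different degrees. Of cells with 0, 1 to 2, 3 to 9 and at least 10 Krt8 UMIs after thinning at 1 day, Atp6v1g3 was found in 1.04%, 4.20%, 7.71% and 11.5%. Nppb was found in 4.38%, 8.20%, 13.0% and 18.5%, Pyy in 6.75%, 10.6%, 10.3% and 11.98%, and Fabp7 in 0.753%, 1.16%, 1.43% and 1.30%. The shares of Atp6v1g3 and Nppb were higher in each higher class, while those of Pyy and Fabp7 differed mainly between cells without and with Krt8. Trp63 was found in 19.9% of Krt8-negative cells and 8.59% of cells with at least 10 Krt8 UMIs.

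At 1 week the shares over the same classes were 0.546%, 2.67%, 9.35% and 13.3% for Atp6v1g3, 6.93%, 23.9%, 41.5% and 33.3% for Nppb, 4.63%, 8.31%, 19.1% and 24.4% for Pyy, and 1.61%, 1.78%, 4.07% and 2.22% for Fabp7. The top class held 45 cells at 1 week, so its intervals are wide. Compared as Krt8-positive against Krt8-negative cells, Atp6v1g3 was found in 6.03% against 1.04% at 1 day and 4.87% against 0.546% at 1 week. For Fabp7 the comparison was 1.28% against 0.753% at 1 day, and 2.38% against 1.61% at 1 week, where the interval of the difference ran from -0.20 to 1.99 points. That 1-week difference was larger after thinning to 4000 UMIs, at 2.07 points (0.37 to 4.18), and with Krt8-positive set at 3 UMIs, at 2.14 points (0.22 to 5.05). These intervals cover counting error within 1 library and are no test.

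**Figure D3:**
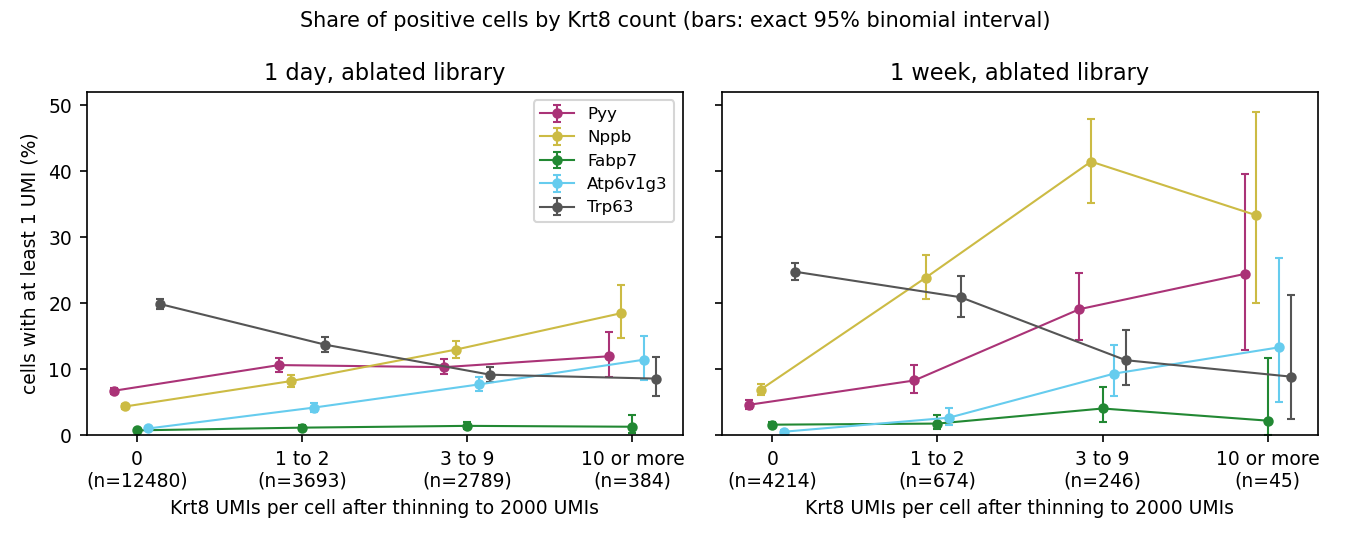
Share of cells with at least 1 UMI of each gene by Krt8 UMIs per cell, all after thinning to 2000 UMIs, in the ablated libraries, with exact 95% binomial intervals. The Atp6v1g3 points run from 1.04% to 11.5% across the 1-day classes and those of Trp63 from 19.9% to 8.59%.

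Within the Krt8-led cells at 1 day, Pyy was found in 12.1% of Krt8-positive and 14.3% of Krt8-negative cells, a difference of -2.19 points (-5.16 to 0.55). Nppb was found in 13.7% and 9.78%, a difference of 3.93 points (1.26 to 6.35). For Atp6v1g3 the shares were 9.34% and 7.34%, 2.01 points apart (-0.35 to 4.10). Between the 4 genes in the Krt8-led cells, Pyy was found in 12.4% of Nppb-positive and 12.5% of Nppb-negative cells. Atp6v1g3 was found in 13.5% of Pyy-positive and 8.30% of Pyy-negative cells, but in 6.42% of Nppb-positive and 9.32% of Nppb-negative cells. Over all thinned cells, 2 or more of the 4 genes were found in 2.90% of Krt8-positive and 0.657% of Krt8-negative cells at 1 day, and in 6.11% and 1.19% at 1 week. One cell held all 4. Each gene's own share was also higher in Krt8-positive cells, by 3.84 (Pyy), 6.34 (Nppb), 0.53 (Fabp7) and 4.99 (Atp6v1g3) points at 1 day. At 1 week the differences were 7.19, 21.9, 0.77 and 4.32 points. The share expected from the single genes was not computed, so these counts do not show that the genes were on together.

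Much of the RNA of Pyy, Nppb and Fabp7 sat in few cells. In the 1-day ablated library 397 cells, 1.68% of all, held 10 or more Pyy UMIs and 70.0% of the Pyy UMIs, a threshold set after the counts had been seen. For Nppb 222 cells held 51.6% of UMIs, and for Fabp7 28 cells held 51.1%. Atp6v1g3 had no such cell at 1 day, its highest count being 9 UMIs, and 49.6% of its UMIs lay in cells with 1 UMI. At 1 week 88, 151, 28 and 4 cells held 59.5%, 60.04%, 59.2% and 8.92% of the Pyy, Nppb, Fabp7 and Atp6v1g3 UMIs. The highest count in 1 cell was 250 for Pyy and 252 for Nppb.

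Few of these high cells were high for more than 1 of the 4 genes. Of 638 cells with 10 or more UMIs of any of the 4 genes at 1 day, 9 held that many of more than 1, each of them Pyy with Nppb. That is 2.27% of the Pyy-high and 4.05% of the Nppb-high cells, where 0.939% of all cells were Nppb-high and 1.68% Pyy-high. At 1 week it was 13 of 256 cells, 8 of them Pyy with Nppb, which is 9.09% of the Pyy-high cells where 0.966% of all cells were Nppb-high. The threshold was applied to unthinned counts, so deep cells reach it more easily. At 1 week the median depth was 11930.5 UMIs in Pyy-high and 21117 in Nppb-high cells, against 1614 and 1610 in cells without the gene. At 1 day it was 4185 and 5083.5, against 3312 and 3311. The part of depth in the overlap was not tested. Of the 1-day Nppb-high cells 50.0% were in the Krt8-led cluster, of the Pyy-high cells 38.8%, and of the Fabp7-high cells 7.14%, where that cluster held 15.8% of all cells. At 1 week 57.1% of the 28 Fabp7-high cells were suprabasal-like and 28.6% Krt8-led. Of the 151 Nppb-high cells 34.4% were Krt8-led, 32.5% cycling and 21.2% suprabasal-like. These classes held 312, 314 and 380 cells, which is 2.00%, 2.01% and 2.43% of all 1-week ablated cells. Only the 5179 cells of at least 2000 UMIs were put in a class. No Fabp7-high or Nppb-high cell was under 2000 UMIs at 1 week, against 66.4% of the cells without Nppb. The base over all cells thus makes the high cells look more concentrated than a base of classed cells would.

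**Figure D4:**
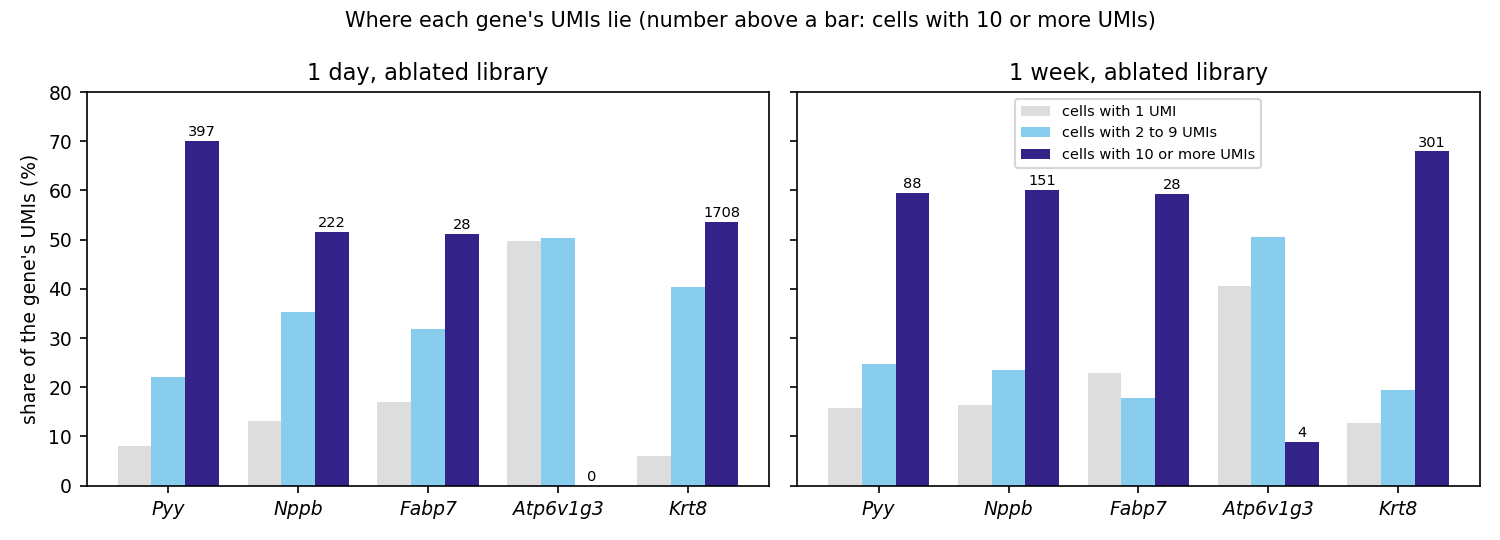
Share of each gene's UMIs held by cells with 1, 2 to 9 and 10 or more UMIs of it in the ablated libraries; the number above a bar counts the cells with 10 or more. Cells with 10 or more UMIs hold 70.0% of Pyy UMIs at 1 day and none of those of Atp6v1g3.

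Controls also had Pyy-high cells, 64 at 1 day and 53 at 1 week, with up to 113 and 118 UMIs in 1 cell. No Krt8 UMI was found in any of them, where 0.314% and 0.206% of all control cells held one. At those shares none would be likely in 64 or 53 cells in any case, so this does not show that they lack Krt8. The Pyy-high control cells held Trp63 at 469 and 585 CPM, and 87.5% and 94.3% of them lay in keratinocyte classes. Of control cells without Pyy, 72.9% and 37.7% lay in those classes. But 17.1% and 58.0% of the cells without Pyy were under 2000 UMIs and so had no class, against 3.1% and 1.9% of the Pyy-high cells. In the 1-day ablated library, Krt8 was at 875 CPM and Trp63 at 112 in the 397 Pyy-high cells, and Krt8 was found in 61.7% of them, against 42.1% of all cells of that library. One control cell of the 59 named endothelial cell-like at 1 week held all 96 Pyy UMIs of that class.

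Across keratinocyte and Krt8-led clusters the 4 genes ranged with Krt8 unevenly. Only library-by-cluster sums of at least 50 cells in these clusters were used, here and for the likeness below. There were 33 such sums at 1 day (15 control, 18 ablated). Over them, Pearson's r of log2(CPM + 1) with Krt8 was 0.71 for Pyy, 0.82 for Nppb, 0.72 for Fabp7 and 0.75 for Atp6v1g3. Over 41 sums at 1 week (22 and 19) it was 0.42, 0.93, 0.69 and 0.48. The points share libraries and mix both genotypes, between which these genes and Krt8 were chosen to differ, so that difference enters r. Over single thinned cells of the ablated libraries alone, r of log-transformed counts with Krt8 was 0.07, 0.16, 0.01 and 0.17 for Pyy, Nppb, Fabp7 and Atp6v1g3 at 1 day (19346 cells), and 0.18, 0.32, 0.03 and 0.19 at 1 week (5179 cells). In counts this sparse such values are descriptions only. Leaving out Krt8 and the 4 genes themselves, and genes under 200 UMIs in the ablated library, the genes most like Nppb were Tslp, an epithelial cytokine, at 1 day (r of 0.87) and Krt18 at 1 week (0.94). The next for Nppb were Sprr2a3, Krt18, Tppp3 and Ly6c1 at 1 day (0.82 to 0.85) and Pkm, Tchh, Elf3 and 2610528A11Rik at 1 week (0.83 to 0.87). Most like Pyy were Ly6c1, Sprr2a3, Tslp, Ly6a and Esr1 at 1 day (0.85 to 0.81) and Ifngr1, Mab21l4, Tppp3, Ipmk and Ppp2r2c at 1 week (0.81 to 0.76). Most like Fabp7 were Krt4, Ddah1, Rgn, Serpinb3a and Sprr2a3 (0.82 to 0.78), then Cxcr2, Fxyd4, Elf5, Slurp1 and Sprr2d (0.80 to 0.73). Most like Atp6v1g3 were Krt4, Ddah1, Ly6c1, Itpkc and Tnip3 (0.89 to 0.82), then Ddah1, Tnip3, Vps37b, Atp1b1 and Ifngr1 (0.77 to 0.67). Of the genes left out, Krt8 would stand among the 5 most like Nppb at 1 week (0.93), and Atp6v1g3 among the 5 most like Fabp7 at 1 day (0.79).

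**Figure D5:**
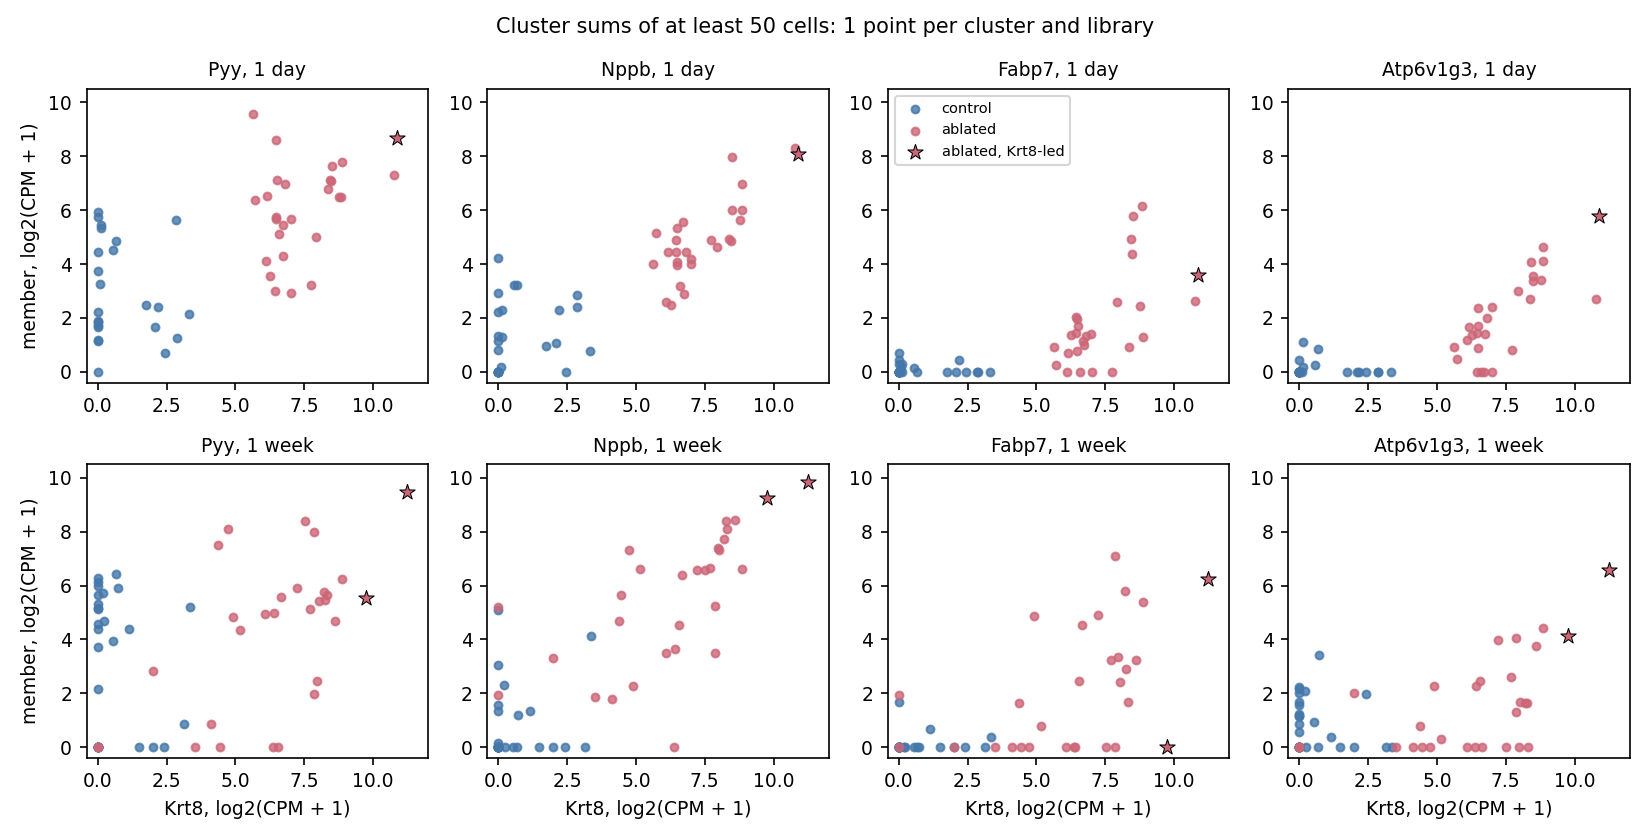
Level of each gene against Krt8, both as log2(CPM + 1), in cluster sums of at least 50 cells, 1 point per cluster and library, with Krt8-led clusters as stars. Clusters of all classes are drawn, while r in the text was taken over keratinocyte and Krt8-led clusters only. In the Fabp7 panel at 1 day several ablated clusters lie above the Krt8-led star, which stands at 10.99 CPM.

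Close relatives of the 4 genes were mixed. Nppa, which encodes atrial natriuretic peptide and lies next to Nppb, had 0 UMIs in all 4 libraries. Ppy, next to Pyy, had 0 UMIs apart from 4 in the 1-week ablated library. Npy, which encodes neuropeptide Y, stood at 0.440 and 0.866 CPM in the 1-day pair and at 0.351 and 1.24 in the 1-week pair, a 3.53-fold difference where that of Pyy was 2.68-fold. Nppc, which encodes C-type natriuretic peptide, went from 5.01 to 8.22 and from 7.60 to 23.1 CPM. Atp6v1g1, the widely expressed G subunit, was at 201 CPM in both 1-day libraries and at 203 and 239 at 1 week, and Atp6v1g2 held 34 and 24 UMIs, then 16 and 13.

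Over all genes tested, 5.38% were at least 2-fold higher and 4.55% at least 2-fold lower at 1 day, and 10.1% and 5.23% at 1 week, and the list counts that follow stand beside these shares. Without the 4 genes, 0 of 23 measured V-ATPase subunits were at least 2-fold higher and 1 lower at 1 day. At 1 week 2 were higher (Atp6v1c2 and Atp6v0a4) and 0 lower. Of natriuretic genes 1 of 8 was higher and 1 lower at 1 day, and 2 of 7 and 1 at 1 week. Npr3, the clearance receptor that removes natriuretic peptides, was the lower one, at 0.933 and 0.183 CPM, then 4.32 and 0.533. Of the pancreatic polypeptide list 2 of 6 were higher and 1 lower at 1 day, and 3 and 1 of 6 at 1 week. Dpp4, a protease that trims peptide YY, went from 5.23 to 22.3 CPM at 1 week, and Npy1r, a receptor of the family, from 1.45 to 0.292.

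Of the fatty acid-binding protein list, counts are given for each time on its own. At 1 day 1 of 9 was higher (Fabp3, 4 to 21 UMIs) and 2 lower, with a list median of -0.61. At 1 week 6 of 8 were higher and 1 lower (10.1% and 5.23% of all genes), with a median of 1.79: Fabp5, the epidermal form, stood at 1260 against 825 CPM in the 1-day pair and at 585 against 2662 in the 1-week pair. Fabp4, the adipocyte form, stood at 4.56 against 2.02 CPM and at 47.9 against 162. At 1 week Crabp2, a retinoic acid carrier, stood at 88.2 against 367 CPM. Of other peptide hormone and endocrine genes 3 of 13 were higher and 3 lower at 1 day, and 3 and 4 of 17 at 1 week. Chga, a granule protein of endocrine cells, had 0 UMIs in the 1-week control and 77 in 29 ablated cells, at least 31.5-fold higher against a floor of 3 UMIs. At 1 week Adm2 went from 17 to 94 UMIs, Tac1 from 36 to 7, and Gcg from 22 UMIs in 1 cell to 0.

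Of the other simple epithelial keratins, Krt18 went from 0.906 to 48.5 CPM and from 0.168 to 59.2, Krt19 from 0.153 to 0.204 and from 0.379 to 1.94, Krt7 from 3.12 to 3.49 and from 4.94 to 4.73, and Krt20 held 1 or 2 UMIs in each library. Of 12 Merkel cell markers other than Krt8 and Krt18, 9 had 0 UMIs in the 1-day Krt8-led cells and 11 in those at 1 week, with 4 and 1 UMIs in sum. Atoh1, Sox2, Isl1 and Krt20, which define Merkel cells, were among those at 0. Among chromosomal neighbours, Smpdl3a, which starts 5885 bases past Fabp7, stood at 49.8 against 137 CPM in the 1-day pair and at 47.0 against 146 in the 1-week pair, while Pkib on the other side went from 81.9 to 86.4 and from 120 to 90.7. Beside Atp6v1g3, Nek7 went from 70.1 to 82.1 and from 66.2 to 106 CPM. Beside Pyy, Mpp2 went from 3.26 to 1.86 and from 4.64 to 2.20 CPM. Beside Nppb, the log2 ratios of Mfn2, Plod1 and 2510039O18Rik lay between -0.26 and 0.39 over both times.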

How the data were processed

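UMI counts per gene and cell were deposited by the authors, made with Cell Ranger 5.0.1 on mm10 per the submitters' processing notes, which also name Seurat. The filters were 500 UMIs and 300 genes at least, with mitochondrial UMIs at 15% at most. Scrublet (scanpy 1.11.5) marked 0% to 0.0402% of cells by its own threshold and so had not worked; the highest scores were removed at 0.8% per 1000 barcodes (14.7% to 26.8%). Cells with at least 2000 UMIs were clustered per time (2000 variable genes, 30 components, 15 neighbours, leidenalg 0.10.2). Genes needed 20 UMIs over both libraries. Fold calls and intervals were run on simulated library sums drawn as Poisson counts. Such sums hold no clumping of UMIs in few cells, so the intervals were not tested for clumped counts. TMM factors came from edgeR 4.0.16. No test was made, since each time has 1 library per genotype and the times, which differ in kit, were not pooled. Intervals on UMI counts miss the spread between cells, and all counting intervals miss that between mice.

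The members and lists were chosen with earlier results of these data known. The UMI limit for clustering, the naming limits, the 10-UMI threshold and the rule for antibody tags were set after member levels had been seen, and 2 clusterings and 3 naming rules were tried. Named genes were the members, Krt8, Trp63, simple keratins, close relatives, list genes at least 4-fold changed, neighbours and the genes most like each member. A gene that this rule would name is not reported here. Gene positions are from GENCODE M21 (GRCm38), which held 32158 of the 32285 gene IDs.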

Additional observations from a re-analysis of the deposited data

Results flagged for a closer look

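The 1-day libraries also hold counts of antibody tags, which were not part of the comparisons. The labels do not say what the tags mark. Of 4 tags listed 3 held over 1% of the tag counts. A cell was assigned when its highest tag, relative to the library's median for that tag, was at least 2 and at least 2 times the next, a rule set after the data had been seen; 47.9% of control and 25.0% of ablated cells were assigned. Within the ablated library, levels differed between cells of different tags. Fabp7 stood at 25.1 CPM in cells of tag 2 and 1.26 in cells of tag 3, a ratio of 19.9 (11.3 to 39.0). The controls lay between 0 and 0.241 CPM. By share, Fabp7 was found in 2.96% of tag 2 cells and 0.318% of tag 3 cells. With tag 2, 8 of 2025 cells held 10 or more Fabp7 UMIs, against 0 of 1886 with tag 3. The interval covers counting error only, so it leaves out the weight of such cells. Nppb stood at 152 CPM with tag 2 and 37.4 with tag 1, a ratio of 4.05 (3.66 to 4.49). Atp6v1g3 was highest with tag 3, at 19.0 CPM against 8.42 with tag 1, a ratio of 2.26 (1.77 to 2.89). Pyy stood at 222 CPM with tag 2 and 137 with tag 3, a ratio of 1.62 (1.51 to 1.73). Krt8 lay between 415 and 498 CPM over the 3 tags. When every cell was given its largest tag, Fabp7 stood at 22.1 CPM with tag 2 and 3.93 with tag 3. In the controls Pyy lay between 16.8 and 33.4 CPM over the tags and Nppb between 2.61 and 5.44. The 1-week libraries list no tags, and with 1 library per group the tag differences were not tested.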

How the results depend on the processing

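No log2 ratio or share changed direction under any alternative tried, with 33 of 81 ratios and 36 of 55 shares moving beyond their counting interval. No paired analysis was possible because the groups compared share fewer than 2 replicate numbers, with 1 library each, and a fit over both times was not made, since the kits differ. Without doublet removal, the log2 ratio became Pyy 2.60 at 1 day, and Pyy 1.29 at 1 week. In keratinocyte classes without the Krt8-led cells, the log2 ratio became Pyy 2.25, Nppb 3.87 and Atp6v1g3 4.37 at 1 day, and Pyy 0.83, Nppb 5.91, Fabp7 8.79 and Atp6v1g3 1.14 at 1 week. Without cells of 10 or more UMIs of the gene, the log2 ratio became Pyy 2.27, Nppb 4.07 and Fabp7 4.93 at 1 day, and Pyy 1.28, Nppb 5.83 and Fabp7 5.76 at 1 week. With the same lowest UMI count in both libraries, the log2 ratio became Fabp7 6.81 at 1 day. In cells of at least 2000 UMIs, the log2 ratio became Fabp7 6.81 at 1 day, and Fabp7 7.96 at 1 week. In cells under 2000 UMIs, the log2 ratio became Pyy 3.35 and Fabp7 2.04 at 1 day, and Pyy 1.13, Nppb 6.70, Fabp7 5.06 and Atp6v1g3 2.19 at 1 week. Without the 1 control cell that held 6 of their 10 Fabp7 UMIs, the 1-day value was 3.36. Without cluster 14, the 1-day hair follicle-like log2 ratio became 2.52 for Nppb, against 1.98, and stayed within its counting interval for Pyy. As the mean of CPM per cell, the log2 ratio became Fabp7 4.27 at 1 day, and Pyy 1.25, Fabp7 5.55 and Atp6v1g3 2.29 at 1 week. With TMM factors, the log2 ratio became Pyy 1.33 at 1 week. In keratinocyte classes with the Krt8-led cells, the log2 ratio became Pyy 1.63 and Fabp7 9.02 at 1 week. With a mitochondrial limit of 10%, the log2 ratio became Pyy 1.49 at 1 week. After thinning to 1000 UMIs, the ablated minus control share, in percentage points, became Pyy 4.52, Nppb 4.19, Fabp7 0.544 and Atp6v1g3 1.48 at 1 day, and Pyy 4.79, Nppb 12.2 and Atp6v1g3 0.610 at 1 week. After thinning to 4000 UMIs, the ablated minus control share, in percentage points, became Pyy 7.80, Nppb 8.82, Fabp7 1.88 and Atp6v1g3 3.61 at 1 day, and Nppb 12.1, Fabp7 2.93 and Atp6v1g3 2.58 at 1 week. Without doublet removal, the ablated minus control share, in percentage points, became Pyy 6.63 and Nppb 6.74 at 1 day. For cells of 10 or more UMIs, the ablated minus control share, in percentage points, became Pyy 1.39, Nppb 0.921 and Fabp7 0.118 at 1 day, and Pyy 0.297, Nppb 0.946, Fabp7 0.179 and Atp6v1g3 0.0256 at 1 week. With Krt8-positive set at 3 UMIs, the Krt8-positive minus Krt8-negative share, in percentage points, became Pyy 2.89, Nppb 8.40 and Atp6v1g3 6.40 at 1 day, and Pyy 14.8, Nppb 30.9, Fabp7 2.14 (0.22 to 5.05) and Atp6v1g3 9.13 at 1 week. After thinning to 4000 UMIs, the Krt8-positive minus Krt8-negative share, in percentage points, became Nppb 8.70 and Atp6v1g3 6.07 at 1 day, and Fabp7 2.07 (0.37 to 4.18) and Atp6v1g3 9.58 at 1 week. Without doublet removal, the Krt8-positive minus Krt8-negative share, in percentage points, became Nppb 5.50 and Atp6v1g3 3.94 at 1 day. Without the filter on low counts, 2588 and 3473 genes were at least 2-fold higher at 1 day and 1 week, against 833 and 1634. Cells of 10 or more UMIs, cells of at least and under 2000 UMIs, leaving out that control cell or cluster 14, and the clusters by number were alternatives added after the data were seen. The ratios of Fabp7 rest on 22 and 13 control UMIs, and the choice of cells moved them beyond their counting intervals.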
